A study of Mus musculus with 7 samples.

Results

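The genes described here are the nuclear receptors, a family of transcription factors, in the developing and adult mouse colon. The family was taken as a list of 39 gene symbols. Its rule uses no measured value, but it was chosen with earlier results of these data known. Of these genes, 37 were measured among 18194 genes on the array. Nr1h2 and Nr2e3 were not analysed here because no probe set names either of them alone. Colon was taken from C57BL/6 mice, an inbred strain, without treatment or genetic change in any group, on 6 consecutive days of gestation, E13.5 to E18.5 (E for embryonic day), and in adulthood, 8 weeks after birth. Total RNA of each of the 7 stages was hybridized to 1 Affymetrix mouse genome array, whose probe sets are groups of short oligonucleotides that report 1 transcript. The deposited values are log2 intensities, so a difference of 1 is a 2-fold change, and where several probe sets name a gene their median was used. The sources used here do not say whether animals were pooled, and no stage has a replicate. In this whole-organ RNA, fewer cells of a type and less RNA per cell cannot be told apart.

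Most nuclear receptors sit on DNA, or move to it, and switch target genes on or off when a small lipid-soluble ligand binds them, such as a steroid, thyroid hormone, vitamin D, a bile acid or a fatty acid. Many bind DNA as partners of a retinoid X receptor, and others, called orphan receptors, have no settled natural ligand. In the gut they tie absorption, bile acid handling, detoxification and lipid use to what passes through the lumen, and some of them shape the layers of the gut wall in the embryo.

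The course of each gene was measured in 2 ways by 1 fit of limma, a linear model across all genes. A slope per embryonic day was fitted through the 6 embryonic arrays, with a call wherever the p adjusted by Benjamini-Hochberg was under 0.05. The adult array was set against the level fitted at E18.5 and called at an adjusted p under 0.05 and a difference of at least 1. The error of both is the scatter of single arrays around a straight line with 4 residual degrees of freedom, which the single adult array is taken to share. Slopes are in log2 units per day and errors are standard errors (SE).

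Of the 37 receptor genes, 7 rose along the embryonic days, which is 18.9% beside 9.12% of all genes. These were Nr1h4, Pparg, Thra, Esrra, Vdr, Nr2f6 and Ppard. Another 3 receptor genes fell, Nr2f1, Nr2f2 and Nr2c2, which is 8.11% beside 10.4% of all genes. In the adult colon 3 receptor genes exceeded E18.5 by 2-fold or more, Vdr, Pparg and Nr1d2, which is 8.11% beside 4.23% of all genes. None was called at least 2-fold lower in the adult by limma, beside 3.26% of all genes, and at an unadjusted p under 0.05 the adult value was lower for 2, Rarg and Thra (13.4% of all genes), and higher for 9 (17.55% of all genes). In all, 11 receptor genes were called by either measure, beside 23.3% of all genes, and 26 by neither. The median slope of the 37 genes was 0.02 per day, beside 0.00 over all genes, and their median adult difference was 0.06, beside 0.03.

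**Figure D1:**
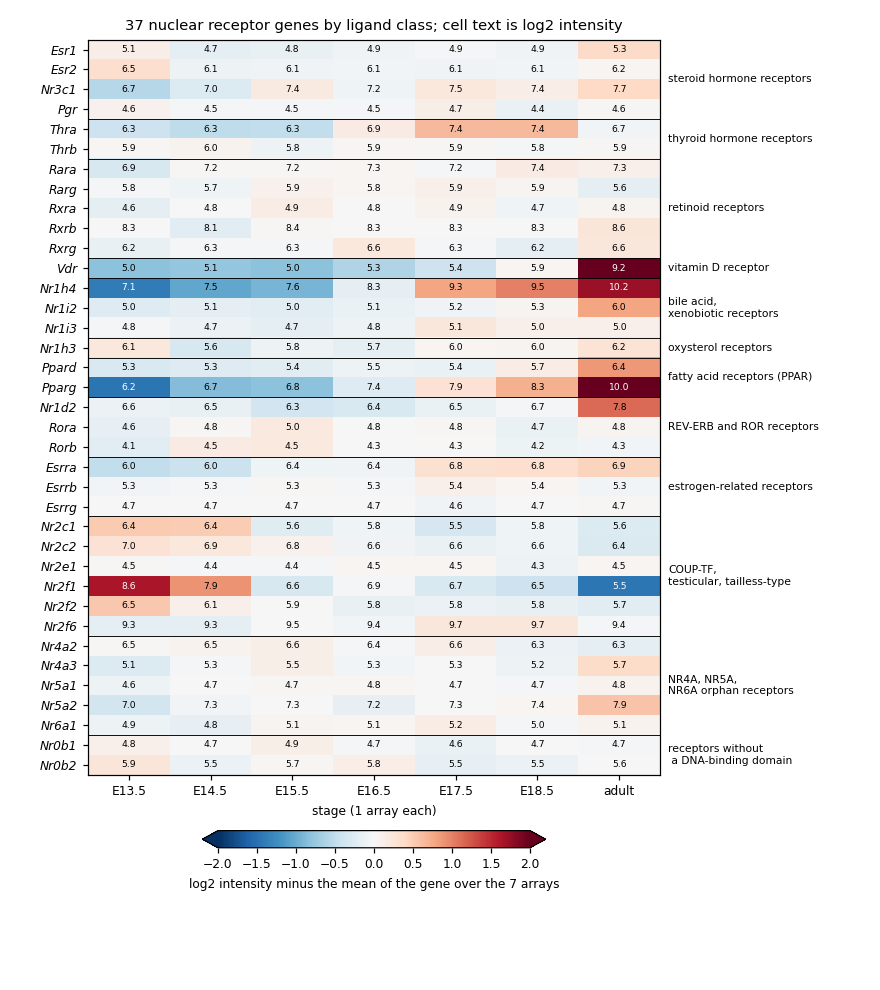
Levels of the 37 measured nuclear receptor genes (rows, by ligand class) at the 7 stages (columns, 1 array each). Colour is log2 intensity minus the mean of the gene over the 7 arrays, and the number in each cell is the log2 intensity itself. Vdr, Nr1h4, Pparg and Nr2f1 span the widest ranges, between 3.09 and 4.22 log2 units, and 8 of the 37 genes span 1 or more, beside 23.5% of all genes.

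Promoters are shown here for the receptor genes called higher in the adult, Vdr, Pparg and Nr1d2, and for Nr1h4, which had the steepest slope, as context on what lies upstream of their annotated starts. RefSeq promoters (mouse build GRCm38.p6) were available for 36 of the 39 listed genes, 56 promoters in all, each running 250 bases before and 50 after an annotated transcription start, 5′ to 3′ on the strand of the gene. Capitals mark exact matches on either strand to 3 short motifs: AGGTCA, the half-site that many nuclear receptors bind, GGGCGG, the GC box, and TTTATG, a form of the site bound by CDX factors of the gut epithelium. No match in these promoters shares bases with another. The E-box, CACGTG, was also searched and had no match in the promoters shown. It was found in 6 of the 56 receptor promoters, beside 7.15% of all promoters.
Vdr, chr15:97908247-97908546, minus strand: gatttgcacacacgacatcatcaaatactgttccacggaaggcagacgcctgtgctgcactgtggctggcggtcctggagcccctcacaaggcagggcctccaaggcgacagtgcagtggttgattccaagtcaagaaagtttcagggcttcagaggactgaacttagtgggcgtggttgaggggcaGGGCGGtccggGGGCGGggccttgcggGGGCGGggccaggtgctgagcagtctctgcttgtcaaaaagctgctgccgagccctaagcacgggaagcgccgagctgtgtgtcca
Pparg, chr6:115362099-115362398, plus strand: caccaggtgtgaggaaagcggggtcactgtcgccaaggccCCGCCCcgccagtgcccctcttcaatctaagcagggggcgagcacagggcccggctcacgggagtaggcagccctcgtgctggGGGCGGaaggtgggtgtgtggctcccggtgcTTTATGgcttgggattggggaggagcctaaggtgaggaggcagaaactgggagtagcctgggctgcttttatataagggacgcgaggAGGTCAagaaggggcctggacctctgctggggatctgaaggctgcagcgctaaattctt
Nr1h4, chr10:89506609-89506908, minus strand: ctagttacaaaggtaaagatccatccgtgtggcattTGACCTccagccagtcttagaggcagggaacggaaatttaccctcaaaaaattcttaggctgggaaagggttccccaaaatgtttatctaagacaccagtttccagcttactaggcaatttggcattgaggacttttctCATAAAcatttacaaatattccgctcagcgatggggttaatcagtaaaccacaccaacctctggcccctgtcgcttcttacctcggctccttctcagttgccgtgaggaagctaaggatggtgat
Nr1d2, chr14:18239057-18239356, minus strand: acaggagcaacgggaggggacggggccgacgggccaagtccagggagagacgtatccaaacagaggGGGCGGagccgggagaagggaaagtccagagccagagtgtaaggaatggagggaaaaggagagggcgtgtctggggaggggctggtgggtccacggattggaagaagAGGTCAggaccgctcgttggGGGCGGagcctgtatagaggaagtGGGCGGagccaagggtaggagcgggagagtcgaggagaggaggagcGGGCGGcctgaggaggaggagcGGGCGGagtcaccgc
The Vdr promoter held 3 GC boxes within 63 bases before the start and no half-site. The Pparg promoter, 1 of 3 annotated for that gene, held a half-site 9 bases before the start, 2 GC boxes and a CDX-type match. The Pparg promoter that begins at 115360894, not shown, held a half-site and a GC box but no CDX-type match. That at 115421816, also not shown, held only a CDX-type match. In Nr1h4, a half-site began 214 bases and a CDX-type match 75 bases before the start, with no GC box. The Nr1d2 promoter held a half-site 77 bases before the start and 5 GC boxes. Over all 32851 mouse promoters of this length, 16.3% held the half-site, 35.7% the GC box and 11.9% the CDX-type letters. Of the 56 receptor promoters, 12 held the half-site, 24 the GC box and 4 the CDX-type letters, the last in Nr1h4, Pparg and Nr4a3 only. A match is a stretch of letters and was not tested for binding.

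The vitamin D receptor gene Vdr, whose protein controls calcium uptake and many epithelial genes, showed the widest range of the family. Its level was 5.02, 5.08, 5.03, 5.25, 5.43 and 5.89 on the arrays of E13.5 to E18.5 and 9.24 on the adult array. The embryonic values crept up from E16.5 on, and the adult value stood apart from all of them. The adult exceeded the E18.5 level of the line by 3.55 (SE 0.18, limma adjusted p = 7.01e-05), which is 11.7-fold. The embryonic slope was 0.16 per day (SE 0.04, adjusted p = 0.0215), and it was not called when E14.5, E17.5 or E18.5 was left out, with 0.10 per day without E18.5. Both probe sets of Vdr were higher in the adult, but by unequal amounts. Probe set 1418176_at read 4.85, 5.09, 4.96, 5.36, 5.56 and 6.56 from E13.5 to E18.5 and 11.04 in the adult, 22.2-fold over the E18.5 array. Probe set 1418175_at read between 5.07 and 5.31 on the embryonic arrays and 7.45 in the adult. Only the slope of 1418176_at was called (0.30, SE 0.06, adjusted p = 0.0237 over all probe sets).

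Genes known as targets of the vitamin D receptor did not share one course. Of 8 measured, 2 rose along the embryonic days, 1 was higher in the adult and none fell. Over all genes 9.12% rose, 10.4% fell, 4.23% were higher in the adult and 3.26% lower. The counts of the later gene lists stand beside these same shares. S100g, which encodes a calcium-binding protein of absorptive cells, read 6.97, 8.98, 9.02, 10.03, 10.26 and 10.26 from E13.5 to E18.5 and 10.80 in the adult (slope 0.61, SE 0.11, adjusted p = 0.0122). The widest step lay between E13.5 and E14.5, while Vdr read 5.08 at E14.5 and 5.02 at E13.5. Cldn2, a claudin that forms cation pores, rose by 0.32 per day (SE 0.07, adjusted p = 0.0166). Slc30a10, a manganese exporter, was higher in the adult by 1.04 (SE 0.11, adjusted p = 0.00117). Cyp24a1, the enzyme that breaks down vitamin D and a classical target, read 5.01 in the adult and 4.82 at E18.5, and was not called.

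Of the receptors for fatty acids and their derivatives (PPARs), Pparg rose in perfect rank order. It read 6.15, 6.75, 6.79, 7.36, 7.90 and 8.33 from E13.5 to E18.5 and 10.04 in the adult. Each stage was above the one before, and the adult was the highest. The slope was 0.43 per day (SE 0.03, adjusted p = 0.000806), and the adult stood 1.76 above the level fitted at E18.5 (SE 0.16, adjusted p = 0.00064), a 3.39-fold difference. From E13.5 the adult level was 14.8-fold higher. Pparg protein is known from fat cells, where it drives their formation, and from the colon epithelium.

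Ppard, whose protein is expressed widely and promotes fatty acid oxidation, moved less. It read 5.26, 5.31, 5.36, 5.48, 5.44 and 5.71 in the embryo and 6.45 in the adult, which was the highest of the 7 arrays. The slope was 0.08 per day (SE 0.02, adjusted p = 0.0438), and of the 6 fits without 1 embryonic array only those without E15.5 or E17.5 called it, with 0.05 per day without E18.5. The adult difference of 0.82 (SE 0.11, adjusted p = 0.00324) was under 2-fold. The 2 probe sets of Ppard disagreed along the embryonic days. Probe set 1439797_at read 4.65, 4.76, 4.52, 5.02, 5.02 and 5.80 in the embryo and 6.96 in the adult, while 1425703_at read between 5.62 and 6.21 on all 7 arrays. On 1425703_at alone, which has the higher mean, the slope was -0.04 and was not called (adjusted p = 0.545 over all probe sets).

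PPAR targets, genes of fatty acid uptake and oxidation, moved upward where they were called. Of 15 measured, 7 rose, none fell, and 3 were higher in the adult. The steepest was Fabp2, the fatty acid-binding protein of enterocytes, at 1.14 per day (SE 0.20, adjusted p = 0.00921). Pdk4, a kinase that spares glucose when fat is burned, rose by 0.34 per day (SE 0.05, adjusted p = 0.00471). Among those higher in the adult, Ehhadh of peroxisomal oxidation differed by 1.96 (SE 0.45, adjusted p = 0.0251) and Acadm of mitochondrial oxidation by 1.34 (SE 0.21, adjusted p = 0.00573). The median slope of the list was 0.18 per day, beside 0.00 over all genes.

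Adipocytes use Pparg, and of 5 markers of these cells measured, 2, Adipoq and Retn, were called higher in the adult and 1, Fabp4, rose along the embryonic days. The summed level of the 5 was 34.5 in the adult, against 26.5 to 28.1 on the embryonic arrays. Adipoq, the fat cell hormone adiponectin, read 7.45 in the adult and between 4.24 and 4.49 in the embryo. Fabp4, a fatty acid carrier of fat cells that is also on the list of PPAR targets, read between 6.13 and 7.58 in the embryo, lowest at E13.5, and 7.77 in the adult (slope 0.30, SE 0.04, adjusted p = 0.0044). The part of fat tissue in the values of Pparg was not tested.

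**Figure D2:**
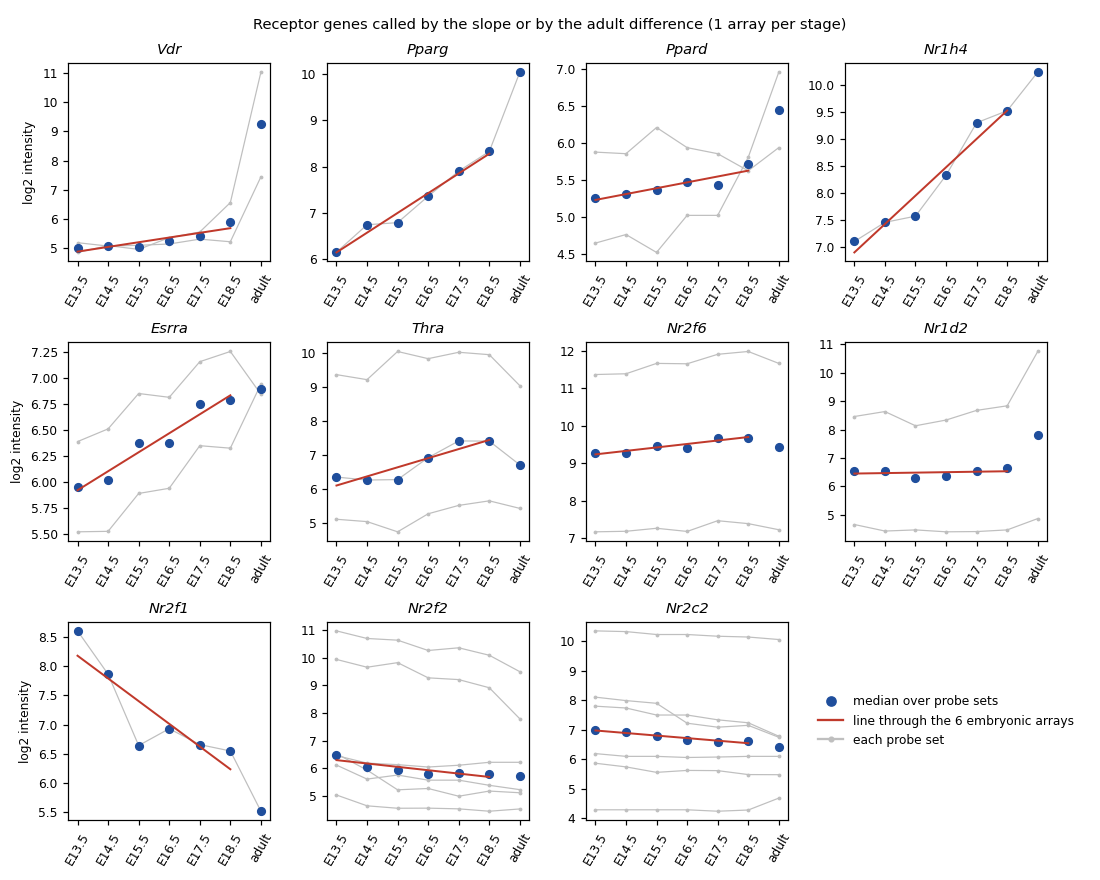
The 11 receptor genes called by the slope or by the adult difference, 1 panel each, with stage on the x axis and log2 intensity on the y axis (scales differ by panel). Points are the median over probe sets on 1 array, grey lines are single probe sets, and the red line is the limma fit through the 6 embryonic arrays. Vdr leaves its embryonic line by 3.55 log2 units in the adult, while the adult value of Thra lies 0.74 below its line.

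Among receptors for bile acids and foreign compounds, Nr1h4 had the steepest slope of all 37 genes. It encodes the farnesoid X receptor (FXR), which senses bile acids in the gut and liver. Its level was 7.11, 7.46, 7.58, 8.33, 9.30 and 9.52 from E13.5 to E18.5 and 10.23 in the adult. The values kept to stage order throughout, and the largest steps lay between E15.5 and E17.5. The slope was 0.52 per day (SE 0.05, adjusted p = 0.00192), and E18.5 was 5.31-fold above E13.5. The adult difference from the fitted line was 0.71 (SE 0.27, adjusted p = 0.127) and was not called. A single probe set measured Nr1h4.

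Of 7 intestinal FXR targets measured, 3 rose along the embryonic days, where 9.12% of all genes did. Fabp6, the bile acid-binding protein of the ileum, read 5.41, 5.22, 5.34, 6.58, 9.33 and 9.79 in the embryo and 8.53 in the adult (slope 1.01, SE 0.18, adjusted p = 0.0105). Slc51b, a subunit of the bile acid exporter of the basal membrane, read 6.00, 5.97, 6.15, 6.95, 9.13 and 9.74 in the embryo and 10.98 in the adult (slope 0.83, SE 0.14, adjusted p = 0.00825). Its partner subunit Slc51a rose by 0.46 per day (SE 0.06, adjusted p = 0.00465). All 3 stayed low until E15.5, and then rose on the arrays of E16.5 and E17.5. The other 4 were not called by either measure, and among them Slc10a2 and Abcb11 had slopes of 0.02 and 0.01 per day. Fgf15, the hormone that reports bile acids to the liver, read 5.21 in the adult and 5.32 at E18.5.

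Nr1i2 encodes the pregnane X receptor (PXR), a sensor of drugs and other foreign compounds. It read 4.97, 5.05, 5.02, 5.10, 5.16 and 5.28 in the embryo and 6.01 in the adult, which was above every embryonic array. The adult difference was 0.78 (SE 0.10, adjusted p = 0.00219), under 2-fold, and the slope of 0.06 per day missed the threshold (SE 0.02, adjusted p = 0.0843). Nr1i3, the constitutive androstane receptor (CAR) with an overlapping set of targets, read between 4.68 and 5.08 on all 7 arrays and lay among the dimmest 25% of genes. Counted on adjusted p alone, with no minimum of 2-fold, 6 receptor genes were higher in the adult, beside 10.2% of all genes. They were Vdr, Pparg, Nr1d2, Ppard, Nr1i2 and Nr5a2, and none was lower, beside 8.4% of all genes.

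PXR and CAR targets had the largest median adult difference of the 13 pathway lists set beside the receptors. Of 10 measured, 6 were called higher in the adult, 4 rose along the embryonic days and none was called downward. Cyp2c55, a drug-oxidizing cytochrome of the colon, read 12.16 in the adult, against 6.99 at E18.5 and between 4.09 and 4.68 before (adult difference 6.24, SE 0.74, adjusted p = 0.00191). Ces2a, a carboxylesterase, read 9.88 in the adult and between 4.85 and 5.37 in the embryo (difference 4.76, SE 0.21, adjusted p = 3.69e-05). Cyp3a13 rose by 0.76 per day (SE 0.06, adjusted p = 0.000882), and Abcb1a, a drug efflux pump, by 0.52 (SE 0.04, adjusted p = 0.000769). Not all listed targets moved this way. Cyp3a11 read between 4.10 and 4.28 on the 7 arrays and Cyp2b10 between 4.41 and 4.70, and neither was called. Abcc2 rose along the embryonic days to 8.33 at E18.5 but read 5.98 in the adult, a difference of -1.83 (SE 0.58) that was not called. The median adult difference of the list was 2.39, beside 0.03 over all genes. Nr1h3, which encodes the oxysterol receptor LXR alpha, read between 5.61 and 6.20 and was not called, and of 11 LXR targets measured (Nr1h3 among them), 2 rose, 2 were higher and 1 was lower in the adult. Those with the largest called differences were Scd2, a desaturase, at -2.03 (SE 0.25, adjusted p = 0.00235), and Abcg5, a sterol exporter, at 1.42 (SE 0.15, adjusted p = 0.00132).

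**Figure D3:**
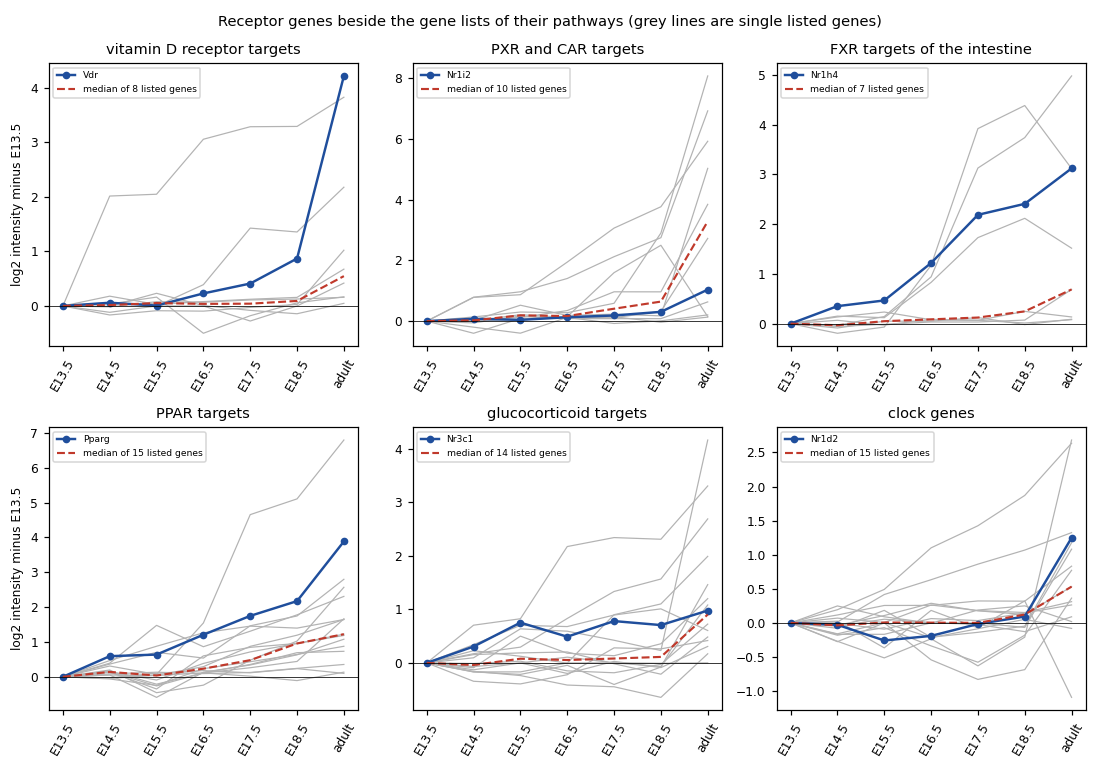
Receptor genes (blue) beside the pathway lists set against them, as log2 intensity minus the E13.5 array of the same gene (y axis), by stage (x axis, 1 array each). Grey lines are single listed genes and the red dashed line is their median. The median of the 10 PXR and CAR targets departs from 0 mainly in the adult, while the 3 rising FXR targets leave 0 at E16.5.

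Many of these receptors and targets are known from gut epithelium, whose markers changed over the same stages. All 11 epithelial markers rose along the embryonic days, and their summed level was 121 in the adult, against 95.7 to 114 on the embryonic arrays. Of 6 markers of colon epithelium, 4 rose and 4 were higher in the adult, and their summed level was 69.5 in the adult, against 32.5 to 48.7 in the embryo. Pancreatic acinar markers, which do not belong to the colon, were higher in the adult for 4 of 5, with a summed level of 35.7 in the adult and 25.8 to 27.4 in the embryo. Leukocyte markers were higher in the adult for 5 of 7, with a summed level of 53.2 in the adult and 38.6 to 42.8 in the embryo. Of the marker lists not set beside a receptor, 6 of 8 for smooth muscle rose and 1 was higher in the adult, 2 of 6 for liver rose, 1 of 4 for enteric glia rose and 1 fell, and of 6 for endothelium none was called. These log2 sums have no true zero, and no marker reads 0. The adult RNA also differed in the 5′ minus 3′ reading of Gapdh, which was -2.41 in the adult and -1.59 to -1.29 in the embryo, and of Actb, which was -2.66 and -2.14 to -1.96. The part of cell makeup and of RNA quality in the receptor values was not tested.

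Thra and Thrb encode the receptors for thyroid hormone, which remodels the gut epithelium in frogs and mice. Thra read 6.35, 6.26, 6.27, 6.92, 7.42 and 7.41 from E13.5 to E18.5 and 6.71 in the adult. It was higher from E16.5 on, and the adult lay between the early and the late embryonic arrays. The slope was 0.27 per day (SE 0.05, adjusted p = 0.0122), and the adult difference of -0.74 was not called (SE 0.26, adjusted p = 0.0994). On probe set 1454675_at, which has the highest mean of the 3, the levels were 9.37, 9.22, 10.05, 9.84, 10.03 and 9.96 in the embryo and 9.04 in the adult. That probe set was 1.07 lower in the adult (SE 0.26, adjusted p = 0.0347 over all probe sets), and its slope of 0.15 was not called (adjusted p = 0.104). Thra and Nr1d1 overlap at their ends on opposite strands in the annotation, and Nr1d1 was 1.80 higher in the adult (SE 0.13, adjusted p = 0.00022), while the place of the Thra probe sets in the overlap was not examined. Thrb read between 5.79 and 5.96 on all 7 arrays.

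Of 8 other genes of the thyroid hormone pathway, 3 rose along the embryonic days and 2 were higher in the adult. Dio1, the deiodinase that converts thyroxine to its active form, read 8.56 in the adult, against 4.20 to 5.11 in the embryo (difference 3.53, SE 0.13, adjusted p = 2.43e-05). Thrsp, a lipogenic protein induced by the hormone, was higher by 1.25 (SE 0.25, adjusted p = 0.0165). Ttr, a carrier of thyroxine that is also a liver marker, had the steepest slope at 0.43 per day (SE 0.07, adjusted p = 0.00938).

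Nr3c1 encodes the glucocorticoid receptor, through which cortisol or corticosterone matures many fetal tissues. The median over its 6 probe sets read 6.69, 6.99, 7.44, 7.18, 7.47 and 7.39 in the embryo and 7.67 in the adult, and its slope of 0.13 per day missed the threshold (SE 0.04, adjusted p = 0.06). The probe sets fell into different courses. Of these, 1457635_s_at, 1421867_at and 1460303_at rose by 0.29, 0.23 and 0.25 per day (adjusted p = 0.0179, 0.00561 and 0.00935). Probe set 1457635_s_at read 7.70, 8.42, 9.04, 8.72, 9.10 and 9.40 in the embryo and 9.82 in the adult, with E13.5 the lowest and the adult the highest. The other 3 probe sets were not called, with slopes between 0.02 and 0.07 per day. No probe set of Nr3c1 was called in the adult.

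Glucocorticoid targets and enzymes were called both in the adult and along the embryonic days. Of 14 targets, 4 were higher in the adult, 4 rose along the embryonic days and 1 fell. Mt2, a metallothionein, read 11.28 in the adult and between 7.12 and 7.76 in the embryo (difference 3.68, SE 0.27, adjusted p = 0.00024), and Lcn2, an iron-chelating defence protein, was higher by 1.68 (SE 0.17, adjusted p = 0.000959). Mt1 rose by 0.51 per day (SE 0.07, adjusted p = 0.0046) and Cdkn1a, an inhibitor of the cell cycle, by 0.34 (SE 0.03, adjusted p = 0.00172). Of 3 enzymes that set the local hormone level, Hsd11b2, which inactivates the hormone, was higher in the adult by 3.39 (SE 0.60, adjusted p = 0.00994). Hsd11b1, which regenerates it, was higher by 2.13 (SE 0.19, adjusted p = 0.000604). Of 9 genes that respond to handling of tissue, 3 were higher in the adult, Fos, Atf3 and Zfp36, and the list had a summed level of 72.8 in the adult, against 59.5 to 63.7 in the embryo. Fos, an early response gene, read 10.57 in the adult and 7.49 at E18.5, and the part of handling in these values was not tested.

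Receptors for sex steroids were called by neither measure. Pgr, the progesterone receptor, read between 4.40 and 4.66 and was among the dimmest 25% of genes. Esr2, estrogen receptor beta, read 6.52 at E13.5 and between 6.07 and 6.21 on the other 6 arrays, and neither measure was called. Esr1, estrogen receptor alpha, read 5.05, 4.73, 4.77, 4.85, 4.90 and 4.85 in the embryo and 5.30 in the adult, with an adult difference of 0.47 (SE 0.15, adjusted p = 0.0689). Of its 3 probe sets only 1460591_at was called, at 6.03 in the adult and between 4.66 and 4.90 in the embryo (difference 1.12, SE 0.10, adjusted p = 0.000657). The 95% interval of the adult difference ran from -0.23 to 0.37 for Pgr and from -0.22 to 0.58 for Esr2.

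Retinoid receptors, which carry the signal of vitamin A, varied little. Rara, retinoic acid receptor alpha, read 6.89 at E13.5 and between 7.19 and 7.39 on the other 6 arrays (slope 0.07, SE 0.03, adjusted p = 0.153). Rarg read between 5.61 and 5.89, with its lowest value in the adult (difference -0.28, SE 0.10, adjusted p = 0.111). The 2 probe sets of Rarg differed. Probe set 1419415_a_at, which has the higher mean, read between 6.45 and 6.80 in the embryo and 6.20 in the adult. Its adult difference of -0.59 (SE 0.12) was under 2-fold, and that of 1419416_a_at was 0.04 (SE 0.11). The retinoid X receptors, the shared partners of many family members, read between 4.59 and 4.94 for Rxra, 8.12 and 8.58 for Rxrb, and 6.17 and 6.60 for Rxrg. None of the 5 was called, and no slope was steeper than 0.07 per day. The probe set of Rxra with the highest mean, 1454773_at, read between 9.04 and 9.71, with the adult highest, and was not called either (slope 0.07, SE 0.04, adjusted p = 0.281). Of 10 retinoic acid targets measured, 4 rose, 1 fell and 2 were lower in the adult. Rarres2 rose by 0.59 per day (SE 0.08, adjusted p = 0.00493), and the homeobox gene Meis2 fell by 0.28 per day (SE 0.03, adjusted p = 0.00281) and was lower in the adult by a further 1.57. Hoxa5 was also lower in the adult, at 7.71, against 8.69 at E18.5.

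Nr1d2 encodes REV-ERB beta, a heme-binding repressor of the circadian clock. It read 6.56, 6.53, 6.30, 6.37, 6.55 and 6.65 in the embryo and 7.81 in the adult. The embryonic arrays lay within a narrow band, and the adult stood above all of them by 1.27 over the fitted level (SE 0.16, adjusted p = 0.00244), a 2.42-fold difference. Probe set 1416958_at read between 8.14 and 8.84 in the embryo and 10.75 in the adult (difference 2.08, SE 0.26, adjusted p = 0.00267). Probe set 1416959_at read 4.87 in the adult and between 4.40 and 4.66 in the embryo, a difference of 0.47. Rora and Rorb, activators that share DNA sites with REV-ERB proteins, read between 4.63 and 4.99 and between 4.09 and 4.50 by their medians. By that measure both were among the dimmest 25% of genes, and neither was called. Probe set 1455165_at of Rora read between 6.48 and 6.51 in the embryo and 6.96 in the adult, a difference of 0.46 (SE 0.09).

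Clock genes around Nr1d2 moved in the adult too, and in both directions. Of 15 measured, 5 were higher in the adult and 1 was lower, while 2 rose and 1 fell along the embryonic days. Dbp, a clock-driven activator, read 9.87 in the adult and between 6.55 and 7.18 in the embryo (difference 3.12, SE 0.23, adjusted p = 0.000273). Cry2, a repressor of the core loop, was higher by 1.28 (SE 0.16, adjusted p = 0.00239). Nfil3, a repressor that competes with Dbp for the same sites, was lower by 1.24 (SE 0.24, adjusted p = 0.0136). Bhlhe40 had the steepest slope at 0.39 per day (SE 0.03, adjusted p = 0.000769). The sources used here do not give the hour at which tissue was taken, so hour and stage cannot be told apart.

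Of the estrogen-related receptors, orphan partners of the PGC coactivators in mitochondrial metabolism, Esrra rose along the embryonic days. The median over its 2 probe sets was in perfect rank order and read 5.95, 6.02, 6.37, 6.38, 6.76 and 6.79 in the embryo and 6.90 in the adult, with steps after E14.5 and after E16.5. The slope was 0.18 per day (SE 0.02, adjusted p = 0.00403), and both probe sets rose on their own. The adult did not depart from the line by a called amount (0.06, SE 0.12, adjusted p = 0.823), but its probe sets went opposite ways there. Probe set 1442864_at, which has the higher mean, read 6.39, 6.51, 6.85, 6.82, 7.16 and 7.26 in the embryo and 6.85 in the adult, out of rank order, with an adult difference of -0.43 (SE 0.12, adjusted p = 0.0565). Probe set 1460652_at read 5.52, 5.52, 5.89, 5.94, 6.35 and 6.33 in the embryo and 6.94 in the adult (difference 0.55, SE 0.14, adjusted p = 0.0423), under 2-fold. Esrrb read between 5.27 and 5.44 and was not called. Esrrg was flat by its median, between 4.59 and 4.68, but probe set 1455267_at read 7.45 in the adult and between 5.87 and 6.50 in the embryo (difference 1.37, SE 0.28, adjusted p = 0.0169).

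**Figure D4:**
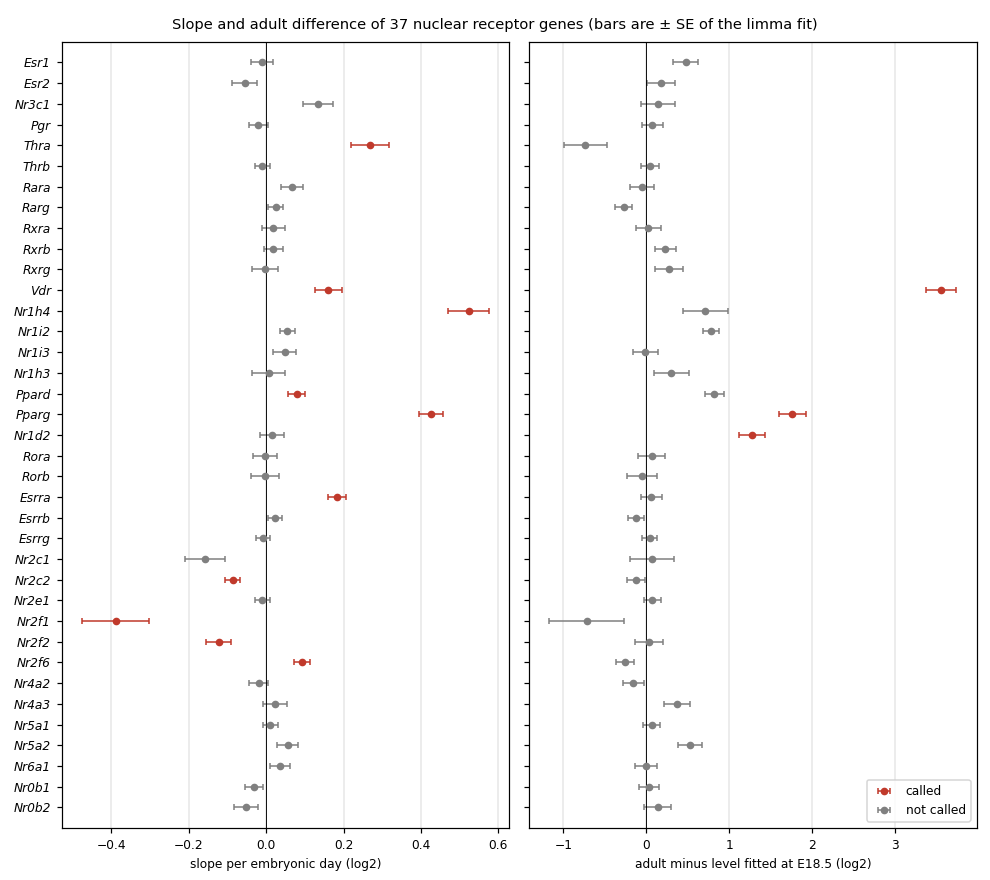
Slope per embryonic day (left) and adult minus the level fitted at E18.5 (right), both in log2 units, for the 37 receptor genes by ligand class. Bars are the standard error of the limma fit and red points are called. Nr1h4 and Pparg have the steepest slopes, at 0.52 and 0.43 per day, and Vdr the largest adult difference at 3.55.

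Nr2f1 and Nr2f2, the COUP-TF receptors, are orphan regulators of mesenchyme, vessels and neurons in the embryo, and both fell along the embryonic days. Nr2f1 read 8.60, 7.86, 6.64, 6.93, 6.66 and 6.55 from E13.5 to E18.5 and 5.52 in the adult. Most of the embryonic fall lay between E13.5 and E15.5, and the adult was the lowest array. The slope was -0.39 per day (SE 0.09, adjusted p = 0.0232), and E13.5 was 8.49-fold above the adult. The adult difference from the fitted line, -0.72, was not called (SE 0.45, adjusted p = 0.349). Between neighbouring embryonic arrays, Nr2f1 made the only 2-fold step of any receptor gene, downward at E15.5 from E14.5. Over the 5 such steps, 0.113% of all gene readings were 2-fold lower and 0.488% were 2-fold higher. On the adult array itself, 3 receptor genes were 2-fold above the E18.5 array (Vdr, Pparg and Nr1d2), beside 4.33% of all genes, and Nr2f1 was 2-fold below it, beside 3.84%.

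Nr2f2, its close relative, read 6.49, 6.06, 5.94, 5.81, 5.84 and 5.80 in the embryo and 5.72 in the adult. The slope of the median over 6 probe sets was -0.12 per day (SE 0.03, adjusted p = 0.0417). Probe set 1416158_at read 10.96, 10.69, 10.63, 10.26, 10.35 and 10.08 in the embryo and 9.49 in the adult. That probe set, which has the highest mean of the 6, had an adult difference of -0.59 (SE 0.14), under 2-fold. Probe set 1416160_at read 9.93, 9.65, 9.82, 9.27, 9.20 and 8.91 in the embryo and 7.79 in the adult. Both fell along the embryonic days, by 0.17 and 0.20 per day (adjusted p = 0.00871 and 0.00982), as did 1444229_at. Only 1416160_at was called in the adult, at -1.18 (SE 0.17, adjusted p = 0.00496), whereas the median over the 6 differed by 0.04 (SE 0.17, adjusted p = 0.933).

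Nr2f6, the third member of that subfamily, rose. It read 9.27, 9.28, 9.46, 9.42, 9.68 and 9.68 in the embryo and 9.44 in the adult, a slope of 0.09 per day (SE 0.02, adjusted p = 0.0253). The adult value fell within the embryonic range. Nr2c2, a testicular orphan receptor, read 6.99, 6.92, 6.80, 6.64, 6.58 and 6.62 in the embryo and 6.42 in the adult, the lowest of the 7 (slope -0.09, SE 0.02, adjusted p = 0.0269). Of its 6 probe sets 2 were called falling. Probe set 1454851_at, which has the highest mean, was not called (slope -0.04, SE 0.02, adjusted p = 0.168 over all probe sets). Nr2c1, a relative of Nr2c2, read 6.40, 6.38, 5.64, 5.78, 5.53 and 5.78 in the embryo and 5.60 in the adult, and missed the threshold by its median (slope -0.16, SE 0.05, adjusted p = 0.0789). On probe set 1439490_at the fall of Nr2c1 was called (-0.13 per day, SE 0.02, adjusted p = 0.00594). Nr2e1, a receptor of neural stem cells, read between 4.35 and 4.49 and was among the dimmest 25% of genes.

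The 3 falling calls changed when single arrays were left out. None of them was made by limma when E13.5, E14.5, E16.5 or E17.5 was left out, only Nr2c2 was called without E18.5, and 4 genes were called without E15.5. Falling calls over all genes were 4.7%, 5.66%, 7.08% and 5.05% without E13.5, E14.5, E16.5 and E17.5, 5.9% without E18.5 and 13.9% without E15.5, beside 10.4% with every array. The slopes over these 6 fits ran from -0.11 to -0.08 for Nr2c2, from -0.48 to -0.26 for Nr2f1 and from -0.16 to -0.06 for Nr2f2, whose -0.06 came without E13.5. Among rising genes, Esrra, Nr1h4 and Pparg were called in all 6 such fits, and they were the only ones called without E14.5 or without E18.5. Genes of cell division fell over the same days, with 7 of 7 markers called and a summed level of 55.2 at E18.5, against 62.9 at E13.5. Red cell markers fell for 3 of 5, with a summed level of 25.03 at E18.5, against 41.5 at E13.5. Their part in the falling receptor values was not tested.

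Nr5a2 encodes liver receptor homolog, which supports renewal and local steroid synthesis in the gut epithelium. It read 6.96, 7.28, 7.31, 7.15, 7.32 and 7.35 in the embryo and 7.89 in the adult, which was the highest array. The adult difference of 0.53 passed the adjusted p but was under 2-fold (SE 0.14, adjusted p = 0.0445), and all 4 probe sets were higher in the adult than on any embryonic array. Nr5a1, the steroidogenic factor of gonad and adrenal, read between 4.61 and 4.79, among the dimmest 25% of genes. Of 6 markers of gonad and adrenal cortex, 1 rose and the same 1, Cyp11a1 of steroid synthesis, was lower in the adult. Nr6a1, the germ cell nuclear factor, read between 4.85 and 5.16 and was also among the dimmest 25% of genes.

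The NR4A genes encode receptors induced within minutes by stress or growth signals. Nr4a3 read between 5.06 and 5.47 in the embryo and 5.71 in the adult by its median (difference 0.37, SE 0.16, adjusted p = 0.161). On probe set 1438796_at it read 7.17 in the adult and between 5.06 and 5.47 in the embryo (difference 1.84, SE 0.16, adjusted p = 0.00067). Of 9 genes that respond to handling of tissue, 3 were higher in the adult. The part of handling in the values of Nr4a3 was not tested. Nr4a2, which is also needed by dopamine neurons, read between 6.26 and 6.57 by its median over 6 probe sets. Probe set 1455034_at of Nr4a2 read 9.47, 9.87, 10.13, 9.28, 9.30 and 9.10 in the embryo and 8.22 in the adult, with a difference of -0.99 that was not called (SE 0.35, adjusted p = 0.109). Of 7 enteric neuron markers, 4 rose along the embryonic days, with a median slope of 0.18 per day, and 4 were lower in the adult. Their summed level was 48.1 in the adult, against 49.5 to 57.7 in the embryo. The part of enteric neurons in the values of Nr4a2 was not tested. Nr0b1 and Nr0b2, which lack a DNA-binding domain and repress other receptors, read between 4.60 and 4.86 and between 5.48 and 5.89, and were not called.

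**Figure D5:**
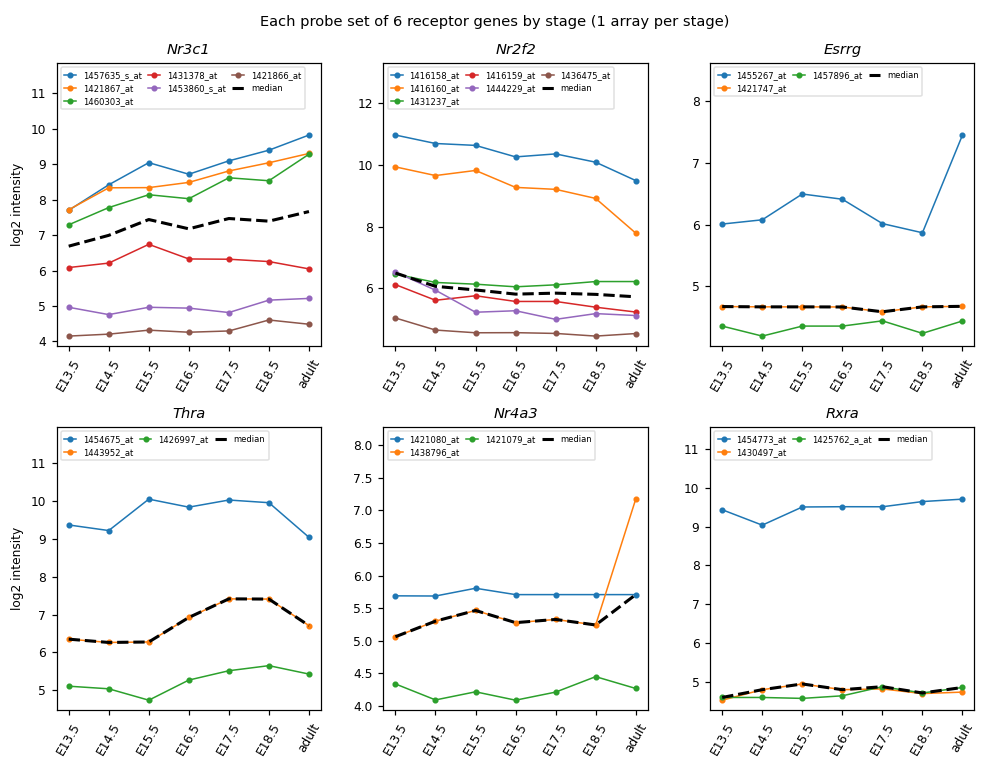
Each probe set (coloured lines, named in the legends) and the median (black dashed line) of 6 receptor genes, with stage on the x axis and log2 intensity on the y axis (1 array per stage). In Nr3c1 and Nr2f2 only some probe sets are called by the slope, and in Esrrg and Nr4a3 a single probe set is raised in the adult, at 7.45 and 7.17.

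How a gene is summarized mattered for part of the family. The 37 genes had 101 probe sets, 25 genes had several, and in 12 the means of the probe sets lay more than 2 apart. Fitted on their own, 10 of the 101 probe sets rose (7.24% of all probe sets did), 7 fell (9.55%), 8 were higher in the adult (3.94%) and 2 were lower (4.21%). No gene had probe sets called in both directions of the same measure. With the probe set of highest mean in place of the median, 6 receptor genes rose (10.4% of all genes did), 3 fell (10.6%), 4 were higher in the adult (5.15%) and 1 was lower (5.52%). Under that choice Nr3c1 was added to the rising genes while Thra and Ppard were lost, Nr2c1 replaced Nr2c2 among the falling ones, Esrrg was added to the genes higher in the adult, and Thra was the 1 lower. Vdr, Pparg, Nr1h4, Esrra, Nr2f6, Nr2f1, Nr2f2 and Nr1d2 kept their calls.

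Genes were also sorted by the steps of the study, which kept those whose Spearman correlation with stage order was beyond 0.9 in either direction and then took as development-related the 1000 of them that varied most by median absolute deviation. Both steps are descriptions that carry no p here. In the first step 6 receptor genes ran upward, Nr1h4, Pparg, Esrra, Vdr, Ppard and Nr1i2, beside 6.5% of all genes. Another 2 ran downward, Nr2f2 and Nr2c2, beside 7.73%. By the median over probe sets Nr1h4, Pparg and Esrra kept perfect rank order, beside 4.0% of all genes in either direction, and with the probe set of highest mean Esrra was not past the cutoff. The same 3, by the median, were among the 1000 development-related genes, which make up 5.5% of all genes.

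Of 7 measured nuclear receptor genes outside the list, 3 rose, 1 fell and 2 were higher in the adult. Nr3c2, the mineralocorticoid receptor of sodium uptake, read 5.61, 5.61, 6.35, 6.63, 6.99 and 7.58 in the embryo and 9.55 in the adult (slope 0.41, SE 0.03, adjusted p = 0.00117, and adult difference 2.07, SE 0.18, adjusted p = 0.000539). Hnf4g and Hnf4a, regulators of enterocyte identity, rose by 0.29 and 0.28 per day (adjusted p = 0.00323 and 0.000769). Rarb, a retinoic acid receptor whose gene is itself a retinoid target, fell by 0.22 per day (SE 0.03, adjusted p = 0.00634).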

How the data were processed

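Total RNA of mouse colon was measured on 7 arrays, 1 per stage. The deposited values are on the log2 scale after RMA by the authors, a method with background correction, quantile normalization across arrays and 1 summary value per probe set. Notes of the submitters list affy 1.22.1 and R 2.9.2, with no roles given. Quantile normalization removes any change common to most genes. Array medians ranged over 5.81 to 5.86 (log2), and the single array per stage limits the precision.

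Of 45101 probe sets, 34958 name 1 gene in the platform annotation, 932 several and 9211 none, and only those naming 1 gene were used. Of 18195 gene identifiers, 18033 matched a RefSeq table of GRCm38.p6, which gave current symbols. Probe sets of 1 gene were summarized by their median, which gave 18194 genes.

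limma 3.58.1 in R 4.3.3 (lmFit, eBayes) fitted the slope and the adult term over all genes, and both were adjusted by Benjamini-Hochberg over all genes. The code was tested on simulated data. Spearman correlations with stage order carry no p. Alternatives were centring of arrays on their medians, the probe set of highest mean per gene, a filter on the dimmest 25% of genes, robust and trended eBayes, a line through all 7 stages in order, an adult contrast with the averaged arrays of E17.5 and E18.5, fits without each embryonic array, and each probe set on its own, the last chosen after seeing the data.

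The receptor genes, the 13 pathway lists and the 14 marker lists were chosen with earlier results of these data known. Of 248 genes on the pathway and marker lists, 222 were measured. All receptors may be named, those called with every array, and of each pathway list the 2 steepest and the 2 most different in the adult among called members, plus targets set beside their receptor. Probe sets called on their own were named after their values were seen. Tables and figures were made in Python 3.11.15 with matplotlib 3.10.9, pandas 2.3.3, scipy 1.17.1 and numpy 2.4.6.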

Additional observations from a re-analysis of the deposited data

How the results depend on the processing

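The count of receptor genes lower in the adult was 0 with the median over probe sets, beside 3.26% of all genes. It was 1 (Thra) with the probe set of highest mean, beside 5.52%, and 2 (Nr2f2 and Thra) with each probe set on its own. With each probe set on its own, 7 genes were higher in the adult in place of 3 (Esr1, Esrrg, Nr4a3 and Ppard were added to Vdr, Pparg and Nr1d2). There a gene counts when any 1 of its probe sets is called, so a gene with several has more chances. No share over all genes was computed for that rule. Per probe set, 8 of 101 were higher, beside 3.94% of all probe sets, and 2 were lower, beside 4.21%. Past the Spearman cutoff were 8 receptor genes (14.2% of all genes), and 3 under perfect rank order (4.0% of all genes). The slope of Ppard was -0.0437 with the probe set of highest mean, the opposite sign of the 0.08 per day by the median. The cause was not tested.

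Leaving out each embryonic array in turn gave 3 to 8 rising and 0 to 4 falling receptor genes, beside 4.46% to 11.4% and 4.7% to 13.9% of all genes, and 3 higher and 0 lower in the adult in every run, beside 3.66% to 4.34% and 2.81% to 3.39%. Fewer arrays then carry the line. Counts of rising, falling, higher and lower genes stayed within 1.5 times under the filter on dim genes, array centring, the eBayes settings and the other line or adult contrast, where these apply. Of the values of single named genes under all alternatives, 143 kept direction and side of the threshold, 33 lost the call, 9 gained one and 1 reversed.

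No paired analysis was possible because each stage has 1 array. By the median over probe sets, 11 of the 37 genes lie among the dimmest 25% of all genes, where low intensity limits the reading. Some of them had a brighter probe set. These include 1454773_at of Rxra (9.04 to 9.71), 1455267_at of Esrrg (7.45 in the adult) and 1455165_at of Rora (6.96 in the adult).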

Other observations

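Coregulators, the proteins through which nuclear receptors act on chromatin, had calls in both directions. Of 18 coactivator genes, 1 rose (9.12% of all genes did) and 3 fell (10.4%) along the embryonic days. In the adult 2 were higher (4.23% of all genes were) and 1 was lower (3.26%). Ppargc1b and Ppargc1a, coactivators of PPAR and estrogen-related receptors in mitochondrial metabolism, were higher in the adult by 1.44 (SE 0.16, limma adjusted p = 0.00153) and 1.20 (SE 0.23, adjusted p = 0.0127). Ppargc1a read 9.12 in the adult, against 7.49 to 7.98 on the embryonic arrays. Prmt1, an arginine methyltransferase, read 9.99, 9.76, 9.30, 9.05, 8.68 and 8.45 from E13.5 to E18.5 and 7.32 in the adult, below every earlier stage (slope -0.32, SE 0.02, adjusted p = 0.000693). Ncoa6, a coactivator of many receptors, fell by 0.13 per day.

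Of 10 corepressor genes measured, 2 fell along the embryonic days, beside 10.4% of all genes, and none was called in the adult. The falling ones were Hdac3, the deacetylase of the corepressor complex, at -0.23 per day, and Sin3a, a scaffold of another deacetylase complex, at -0.17 per day. The median slope was -0.03 per day over the coactivators and -0.06 over the corepressors, beside 0.00 over all genes.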
